A study of Mus musculus with 28 samples.

Results

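Healing back skin of C57BL/6J mice was compared between day 10 and day 7 after a punch wound, by RNA sequencing of 4 libraries at each of these times. These 8 libraries are the columns labelled day 7 and day 10 of a count table of 28 libraries, and they were taken whole, with all genes and without any selection on measured values. All mice were wild type (MLKL+/+ in the study's naming, 8 weeks old), all wounds were left to heal without treatment, and the labels of the groups differ by time only. The full course has 4 libraries on each of days 0, 3, 5, 7, 10, 12 and 14 of the labels, and the study's methods count the earliest time as day 1. The labels name the tissue as skin, and by the study's methods the whole wound with its scab and epithelial edges was excised, for histology and for molecular work. The labels do not say that the 4 libraries of a day came from separate mice, so the P-values measure the spread between these libraries, which may be technical.

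In a healing skin wound, inflammation is followed by granulation tissue, in which fibroblasts secrete collagens I, III and V. These are trimmed, folded and crosslinked by dedicated enzymes, and collagens and fibronectin form the provisional dermis. Part of the fibroblasts become myofibroblasts, which carry smooth muscle actin fibres and pull the edges together, while matrix metalloproteinases cut the matrix and keratinocytes close the surface. The interval from day 7 to day 10 was therefore described by lists of genes for the matrix, its processing, contraction, proteolysis and inflammation, and by marker lists of the cell types that the tissue can hold.

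The 8 libraries were deep and alike. Day 7 libraries held 39491802 to 40368801 counts and day 10 libraries 38686624 to 39516651. The correlation of log2 CPM (counts scaled to a common library total, CPM, with library sizes adjusted by edgeR's TMM factors) was between 0.988 and 0.991 within a day and between 0.960 and 0.964 across the 2 days, and the first principal component of the 8 libraries held 67.5% of the variance. The biological coefficient of variation was 8.49% on day 7 and 5.77% on day 10, against 26.5% on day 0, which shares the dispersion estimate in the fit of all 28 libraries. Day 7 replicate 4 was lower than the other libraries of its day for Fn1, Vcan, Col6a3 and Loxl2, and day 10 replicate 3 was higher for Col1a1, Col1a2 and Fn1, so these genes and Col3a1 are also given without both libraries. Markers of skin were abundant, with Krt5 at 1039 to 1919 CPM, and the tissue also held skeletal muscle (Ckm at 617 to 1341 CPM) and brown fat RNA (Ucp1 at 291 to 589.7 CPM). Every one of the 8 libraries had at most 2 counts of Xist, although the methods name both sexes. In such bulk tissue, fewer cells of a type and less RNA per cell cannot be told apart.

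Of 18107 genes with enough counts for the test, out of 29068 in the table, 2584 rose (14.3%) and 3262 fell (18.0%) from day 7 to day 10. A gene rose or fell here when its adjusted p was under 0.05 by edgeR's quasi-likelihood test on the counts (two-sided, Benjamini-Hochberg adjustment over all genes tested). Most changes were small. Of the genes that rose, 1128 did so by more than 1.5-fold, and of those that fell, 1533 did. With the thresholds given in the study's methods (log2 fold change beyond 1.5 up or down, unadjusted P below 0.05), 251 genes (1.39%) were higher and 583 (3.22%) were lower. The 4 libraries of one day lay wholly above those of the other for 3127 genes higher on day 10 (17.3%) and 3631 lower (20.1%). The split of the calls depended on the scaling: without composition normalization 3404 genes were higher and 2731 lower, and with upper quartile normalization 3348 and 2772. The median log2 fold change of all genes was 0.00 in the fit used here and moved by at most 0.05 under these scalings. Members with too few counts for the test were Col2a1, Col9a1, Col10a1, Chad, Mmp7, Mmp24, Ifng and Xist. The plot of genes by list shows how the 13 lists lay around this median.

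**Figure D1:**
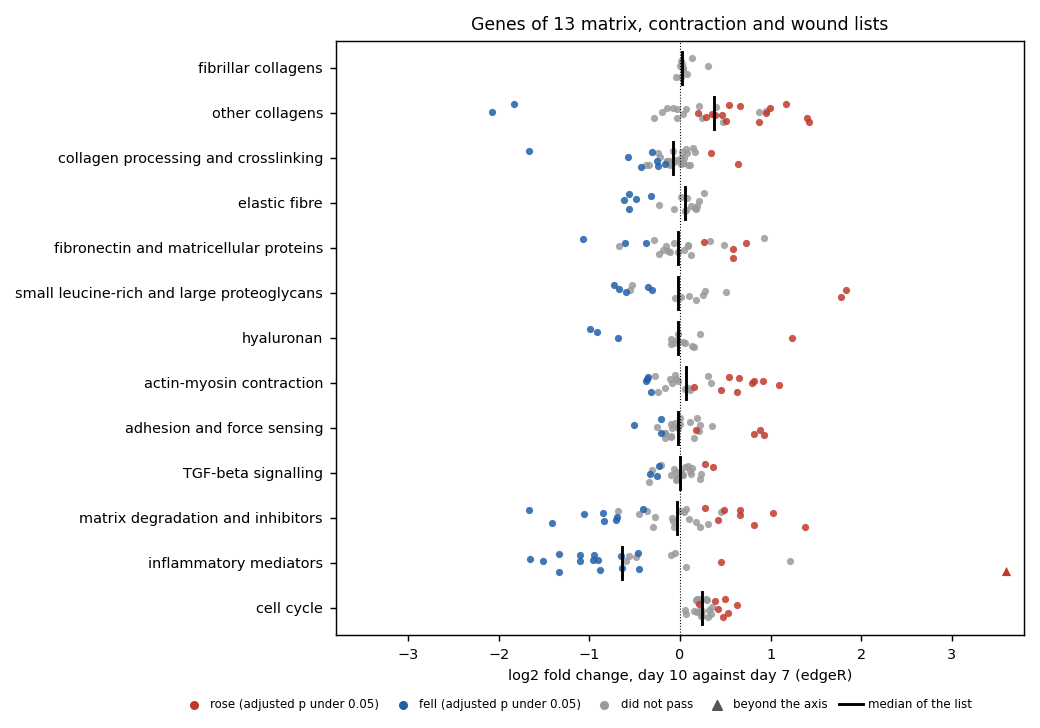
Log2 fold change from day 7 to day 10 (horizontal axis, edgeR) of each tested gene in 13 lists (rows). Red points rose and blue points fell at an adjusted p under 0.05, grey points did not pass, the black bar is the median of the list, and the triangle is Il17a, which lies beyond the axis. The 10 fibrillar collagens sit within 0.31 of 0 without any call, while inflammatory mediators lie mostly to the left (median -0.64) and cell cycle genes to the right (median 0.24).

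The fibrillar collagens, the rope-like collagens that bear the load of the dermis, did not rise in this interval. Of 11 genes in the list 10 were tested, and 0 rose and 0 fell, with a median log2 fold change of 0.03 and a range from -0.05 to 0.31. The libraries of both days overlapped for every one of the 10 genes. Neither count left 0 under any of 23 alternative settings, the fit of the 8 libraries alone among them. Col1a1, which encodes the main chain of collagen I, was at 16057, 15779, 16246 and 16112 CPM on day 7 and 15440, 15760, 18670 and 15812 CPM on day 10. The high value on day 10 is that of replicate 3, and the other 3 libraries lay within or below the range of day 7. Col1a1 had a log2 fold change of 0.03 (standard error 0.23, edgeR adjusted p = 0.93). Col3a1, the chain of collagen III that dominates early granulation tissue, was at 21386, 21263, 21153 and 20504 CPM (day 7) and 20995, 20625, 22714 and 20326 CPM (day 10), again with replicate 3 of day 10 on top. Col3a1 had a log2 fold change of 0.01 (standard error 0.20, edgeR adjusted p = 0.99). Without both libraries that stood apart, the log2 fold changes of Col1a1 and Col3a1 were -0.03 and -0.04, and the log2 fold change of Col1a2 was -0.09.

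The collagen I, III and V transcripts therefore did not rise and stood at their plateau on both days. These are RNA levels, and the deposition of collagen was not measured here. Per length, Col3a1 was the most abundant of the list at 3710 ± 45.4 FPKM at day 7 and 3858 ± 136 FPKM at day 10 (SD, n = 4 for either). Col1a1 had 2651 ± 47.7 and 2807 ± 208 FPKM, and Col1a2 had 2622 ± 69.1 and 2628 ± 133 (SD, n = 4 each), which do not differ from each other on day 7 beyond their spread. Col1a1 had climbed from a day 3 mean of 5155 CPM through 11035 at day 5 to 16049 at day 7. Its mean was 16421 CPM at day 10, then 12132 at day 12 and 5183 at day 14. Summed over the 10 genes, day 7 libraries held 54532 to 55235 CPM and day 10 libraries 52839 to 60499, above all libraries of the other 5 days. In the step before, 4 of the 10 rose and 2 fell, where 13.9% of all genes rose and 14.6% fell. In the step after, 1 rose and 6 fell, where 18.7% of all genes rose and 20.7% fell. Col11a1, a minor chain that starts fibrils, was an exception to the plateau shape over the course. It was at 37.2, 35.8, 34.8 and 36.1 CPM on day 7 and 39.3, 38.5, 40.4 and 33.96 CPM on day 10 (log2 fold change 0.08, standard error 0.14, edgeR adjusted p = 0.72), after a rise of 2.15 on the log2 scale from day 5 to day 7 and before a rise of 1.25 to day 12. The change of Col11a1 differed from the step before by -2.07 (edgeR adjusted p = 7.7e-07) and from the step after by -1.17 (edgeR adjusted p = 0.00073). The plot of 16 genes over the days shows the plateau of Col1a1 and Col3a1.

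**Figure D2:**
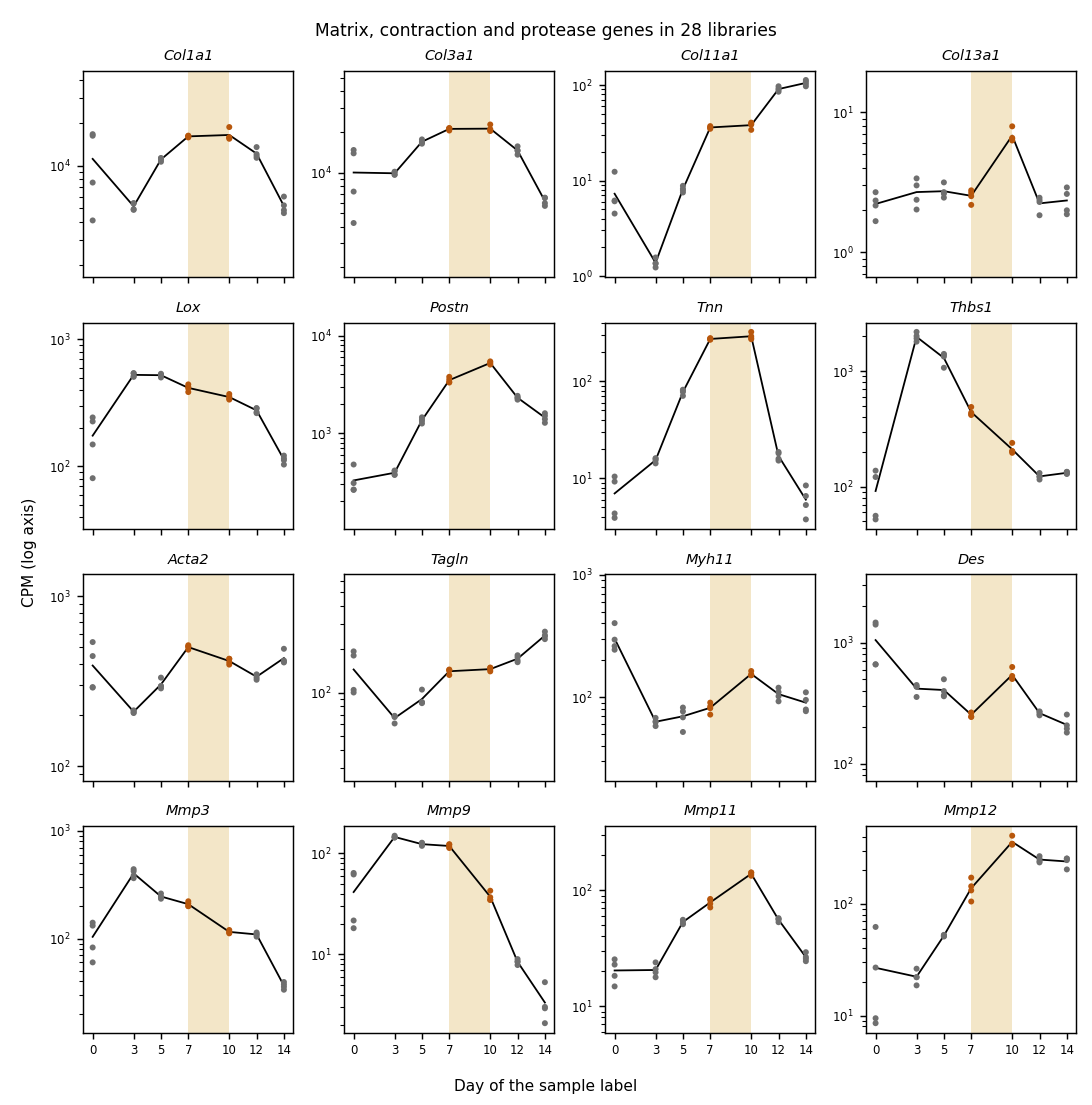
CPM on a log axis against the day of the label for 16 genes in 28 libraries. Points are libraries (4 per day, orange on days 7 and 10), the line joins the means, and the shaded band is the interval from day 7 to day 10. Col1a1 and Col3a1 are level within the band, Postn goes up to between 5041 and 5434, Tnn drops only after it, and Mmp9 and Mmp12 move in opposite directions.

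Other collagens moved more than the fibrillar ones. Of 30 tested, 14 rose and 2 fell, with a median log2 fold change of 0.37, while 14.3% and 18.0% of all genes did. The largest rise was that of Col13a1, a transmembrane collagen of cell contacts, at 2.76, 2.51, 2.65 and 2.17 CPM (day 7) and 7.91, 6.27, 6.54 and 6.45 CPM (day 10). Its libraries were far apart. Col13a1 had a log2 fold change of 1.43 (standard error 0.17, edgeR adjusted p = 1.5e-07). Day 10 was also above all libraries of the other days, with means of 2.72 CPM on day 5 and 2.23 on day 12. Col19a1 was at 0.491, 0.589, 0.688 and 0.784 CPM on day 7 and 1.71, 1.81, 1.66 and 1.56 CPM on day 10. Col19a1 had a log2 fold change of 1.40 (standard error 0.27, edgeR adjusted p = 0.00021). Col25a1 was at 0.775, 0.358, 0.561 and 0.43 CPM (day 7) and 1.44, 1.19, 1.07 and 1.09 CPM (day 10). Col25a1 had a log2 fold change of 1.17 (standard error 0.37, edgeR adjusted p = 0.015). Both are low in this tissue, and the call of Col25a1 was lost without day 7 replicate 2 (edgeR adjusted p = 0.057). Col25a1 rose in the fit of the 8 libraries alone (edgeR adjusted p = 0.0038). The 2 genes that fell encode basement membrane chains that assemble together. Col4a3 was at 5.99, 5.99, 4.36 and 7.005 CPM on day 7 and 1.46, 1.56, 1.35 and 1.17 CPM on day 10. Col4a3 had a log2 fold change of -2.07 (standard error 0.35, edgeR adjusted p = 4.4e-05). Col4a4 was at 13.7, 12.7, 12.2 and 11.5 CPM (day 7) and 3.53, 3.05, 4.09 and 3.43 CPM (day 10). Col4a4 had a log2 fold change of -1.83 (standard error 0.25, edgeR adjusted p = 2.4e-06). Both rose again by 2.54 and 2.07 on the log2 scale from day 10 to day 12, so that day 10 was low between its neighbours.

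Col12a1, Col6a3 and Col14a1 did not pass. Col12a1, which links fibrils, was at 1321, 1430, 1271 and 975 CPM on day 7 and 1137, 1084, 1266 and 1043 CPM on day 10. Col12a1 had a log2 fold change of -0.14 (standard error 0.18, edgeR adjusted p = 0.58). Col6a3, a chain of the beaded filaments around cells, was at 1596, 1663, 1622 and 1268 CPM (day 7) and 1777, 1721, 2025 and 1752 CPM (day 10), with all libraries of day 10 above those of day 7 and replicate 4 of day 7 well below the other 3. Col6a3 had a log2 fold change of 0.24 (standard error 0.11, edgeR adjusted p = 0.11). Without both libraries that stood apart, the log2 fold change of Col6a3 was 0.10 (edgeR adjusted p = 0.59). Col14a1 was at 353, 372, 347 and 350.0 CPM on day 7 and 277, 292, 313 and 287 CPM on day 10, with the opposite order and no overlap. Col14a1 had a log2 fold change of -0.28 (standard error 0.18, edgeR adjusted p = 0.26). In the fit of the 8 libraries alone, Col6a3 was higher (edgeR adjusted p = 0.0059) and Col14a1 lower (edgeR adjusted p = 0.00011).

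Of 33 genes of collagen processing and crosslinking 2 rose and 7 fell, with a median of -0.08, beside 14.3% rising and 18.0% falling among all genes. The share that fell is near that of all genes. Lysyl oxidases, which crosslink collagen and elastin, went different ways. Lox was at 442, 423, 411 and 385 CPM (day 7) and 336, 357, 372 and 343 CPM (day 10), lower in all libraries of day 10, and did not pass. Lox had a log2 fold change of -0.24 (standard error 0.17, edgeR adjusted p = 0.3). Loxl2 was at 296, 294, 296 and 274 CPM on day 7 and 358, 358, 410.5 and 345 CPM on day 10 and rose. Loxl2 had a log2 fold change of 0.34 (standard error 0.12, edgeR adjusted p = 0.026). Loxl3 was at 37.3, 39.7, 36.9 and 32.9 CPM (day 7) and 22.2, 24.1, 28.97 and 23.5 CPM (day 10) and fell. Loxl3 had a log2 fold change of -0.57 (standard error 0.09, edgeR adjusted p = 2.2e-05). The call of Loxl2 was lost without day 7 replicate 4 (edgeR adjusted p = 0.060), without day 10 replicate 3 (edgeR adjusted p = 0.093) and without both (log2 fold change 0.26, edgeR adjusted p = 0.18). In the fit of the 8 libraries alone Loxl2 rose (edgeR adjusted p = 2.1e-05) and Lox fell (edgeR adjusted p = 0.00097). Loxl1 was at 236, 248, 242 and 208 CPM on day 7 and 246, 247, 281 and 260.1 CPM on day 10, with overlap. Loxl1 had a log2 fold change of 0.15 (standard error 0.12, edgeR adjusted p = 0.39).

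The proteases and enhancers that trim procollagen also diverged. Adamts14, which removes the amino-terminal propeptide, was at 27.2, 24.8, 24.7 and 21.01 CPM (day 7) and 38.7, 35, 41.5 and 36.6 CPM (day 10) and rose. Adamts14 had a log2 fold change of 0.64 (standard error 0.13, edgeR adjusted p = 0.00026). Pcolce and Pcolce2 enhance removal of the carboxy-terminal propeptide. Pcolce2 was at 96.9, 91.97, 99.97 and 87.2 CPM on day 7 and 28.7, 29.03, 30.01 and 30.98 CPM on day 10, with the largest fall of the list. Pcolce2 had a log2 fold change of -1.66 (standard error 0.21, edgeR adjusted p = 3.8e-07). It rose again by 1.86 on the log2 scale to day 12. Pcolce was at 346, 345, 373 and 327 CPM (day 7) and 249, 243, 281 and 256 CPM (day 10). Pcolce had a log2 fold change of -0.43 (standard error 0.15, edgeR adjusted p = 0.031). Plod2, which hydroxylates the lysines used in crosslinks, was at 37.3, 38.1, 34.4 and 37.6 CPM on day 7 and 30.5, 29.8, 34.1 and 29.6 CPM on day 10. Plod2 had a log2 fold change of -0.25 (standard error 0.09, edgeR adjusted p = 0.041). Pcolce lost its call in 6 of the 8 fits without a library, all but those without day 7 replicate 4 or day 10 replicate 3 (edgeR adjusted p from 0.053 to 0.077). Plod2 also lost its call in 6, all but those without day 7 replicate 3 or day 10 replicate 3 (edgeR adjusted p from 0.081 to 0.11). Both genes fell in the fit of the 8 libraries alone (edgeR adjusted p = 2.1e-06 for Pcolce and 0.0034 for Plod2). The list lost 3 of its 7 falling genes in each of the fits without day 7 replicate 1, day 7 replicate 2, day 10 replicate 1, day 10 replicate 2 or day 10 replicate 4, and the same number was counted with upper quartile or without composition normalization. Serpinh1, the collagen chaperone, was level at 1121, 1145, 1199 and 1128 CPM (day 7) and 1132, 1138, 1266 and 1158 CPM (day 10). Serpinh1 had a log2 fold change of 0.03 (standard error 0.16, edgeR adjusted p = 0.91). Fkbp10, a prolyl isomerase for procollagen, was at 171, 167, 177 and 162 CPM on day 7 and 184.9, 179, 206 and 190 CPM on day 10. Fkbp10 had a log2 fold change of 0.16 (standard error 0.07, edgeR adjusted p = 0.069). It passed as a rise in the fit of the 8 libraries alone (edgeR adjusted p = 0.0077) and with upper quartile normalization (edgeR adjusted p = 0.022).

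Among elastic fibre genes 0 of 17 rose and 5 fell (14.3% and 18.0% of all genes). Emilin2, a glycoprotein at the elastin surface, was at 118, 128, 125 and 113 CPM (day 7) and 76.2, 76.8, 87 and 74.7 CPM (day 10). Emilin2 had a log2 fold change of -0.62 (standard error 0.14, edgeR adjusted p = 0.00093). Fbln1 was at 147, 137, 154 and 131 CPM on day 7 and 94.7, 94.02, 99.8 and 97.5 CPM on day 10. Fbln1 had a log2 fold change of -0.56 (standard error 0.15, edgeR adjusted p = 0.0054). Efemp1 was at 145, 142, 147 and 147 CPM (day 7) and 95.5, 99.9, 102 and 97.1 CPM (day 10). Efemp1 had a log2 fold change of -0.56 (standard error 0.13, edgeR adjusted p = 0.0012). Both are fibulins of elastic and basement membrane matrix. All 3 had no overlap between the days. Elastin itself (Eln) was at 255, 251, 262 and 267 CPM on day 7 and 272, 292, 334 and 301 CPM on day 10, higher in every library of day 10, and did not pass. Eln had a log2 fold change of 0.21 (standard error 0.13, edgeR adjusted p = 0.23). Eln was called higher in the fit of the 8 libraries alone (edgeR adjusted p = 0.0028), in which 5 genes of the list rose and 6 fell. Of all 16791 genes tested in that fit 3541 rose and 3735 fell. Fbn1, the microfibril backbone, was at 977, 1049, 981 and 894 CPM (day 7) and 819.6, 789.9, 924 and 783 CPM (day 10). Fbn1 had a log2 fold change of -0.23 (standard error 0.22, edgeR adjusted p = 0.45). Mfap4 was at 382, 354, 406 and 311 CPM on day 7 and 401, 415, 434 and 399.8 CPM on day 10. Mfap4 had a log2 fold change of 0.18 (standard error 0.14, edgeR adjusted p = 0.34). With the 8 libraries alone Fbn1 fell (edgeR adjusted p = 0.0034) and Mfap4 rose (edgeR adjusted p = 0.017).

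Of 23 matricellular proteins, which sit in the matrix and signal to cells, 4 rose and 3 fell, shares near the 14.3% and 18.0% of all genes. Postn (periostin), which binds collagen and supports fibril assembly, was at 3547, 3775, 3300 and 3346 CPM (day 7) and 5327, 5144, 5434 and 5041 CPM (day 10). The rise was larger than any spread between libraries. Postn had a log2 fold change of 0.58 (standard error 0.12, edgeR adjusted p = 0.00032). It was smaller than the rise from day 5 to day 7, which was 1.36 on the log2 scale (difference between the steps -0.78, edgeR adjusted p = 0.0076). Day 10 was the highest day of the course for Postn, ahead of means of 2307 CPM on day 12 and 1443 on day 14. Ccn3, a modular matrix protein, was at 41.7, 38.9, 38.9 and 37.5 CPM on day 7 and 64.3, 65.8, 71.5 and 57.9 CPM on day 10 and rose. Ccn3 had a log2 fold change of 0.72 (standard error 0.15, edgeR adjusted p = 0.00031). Thbs1, the thrombospondin of early wounds, was at 437, 489.6, 425 and 417 CPM (day 7) and 203, 203, 239 and 196 CPM (day 10) and fell. Thbs1 had a log2 fold change of -1.07 (standard error 0.19, edgeR adjusted p = 5.8e-05). It had come down from 1980 CPM on day 3 and 1301 on day 5. Tnxb, a tenascin of mature dermis, was at 478, 491, 465 and 396 CPM on day 7 and 296, 281, 329.8 and 295 CPM on day 10 and also fell. Tnxb had a log2 fold change of -0.61 (standard error 0.12, edgeR adjusted p = 0.00019). The number that rose was 2 without day 7 replicate 1, without day 7 replicate 4, or without day 10 replicate 3.

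Tnc, Tnn and Fn1, which encode tenascins and fibronectin of granulation tissue, did not pass. Tnc was at 667, 735, 688 and 575 CPM (day 7) and 826, 791, 935 and 793 CPM (day 10), with no overlap. Tnc had a log2 fold change of 0.33 (standard error 0.38, edgeR adjusted p = 0.55). Tnc was higher in the fit of the 8 libraries alone (edgeR adjusted p = 0.00031). Tnn (tenascin W) was at 271, 278, 268 and 274 CPM on day 7 and 279, 290.5, 322 and 271 CPM on day 10, level within its spread. Tnn had a log2 fold change of 0.09 (standard error 0.18, edgeR adjusted p = 0.74). Its neighbouring steps were large, since Tnn rose by 1.82 on the log2 scale into day 7 and fell by 4.10 after day 10, to a mean of 16.9 CPM on day 12. Fn1 was at 1985, 2108, 1966 and 1399 CPM (day 7) and 1650, 1626, 2002 and 1620 CPM (day 10). Fn1 had a log2 fold change of -0.11 (standard error 0.23, edgeR adjusted p = 0.76). Its extremes were day 7 replicate 4 at the low end of its day and day 10 replicate 3 at the high end of its own. Without both, the log2 fold change of Fn1 was -0.31 (edgeR adjusted p = 0.43). Cthrc1, which marks repair fibroblasts, was at 227, 221, 215 and 208 CPM on day 7 and 232, 229.8, 241 and 223 CPM on day 10. Cthrc1 had a log2 fold change of 0.09 (standard error 0.21, edgeR adjusted p = 0.8).

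Of 16 proteoglycans tested, 5 fell and 2 rose (18.0% and 14.3% of all genes). Dcn (decorin), which binds collagen fibrils and limits their width, was at 2855, 2728, 2736 and 2667 CPM (day 7) and 1847, 1819, 1827 and 1758 CPM (day 10). Its days did not overlap. Dcn had a log2 fold change of -0.60 (standard error 0.22, edgeR adjusted p = 0.038). The call was lost in each fit that left out a library, with adjusted p between 0.059 and 0.080 (edgeR). Dcn fell in the fit of the 8 libraries alone (edgeR adjusted p = 9.0e-10). It also fell in the fit of the 24 libraries of days 3 to 14 (edgeR adjusted p = 1.5e-10). Prelp, a leucine-rich repeat protein of connective tissue, was at 209, 210.1, 204 and 154 CPM on day 7 and 114, 115, 125 and 113 CPM on day 10. Prelp had a log2 fold change of -0.73 (standard error 0.13, edgeR adjusted p = 7.2e-05). Ecm2 was at 86.7, 82.6, 88.2 and 86.4 CPM (day 7) and 49.9, 57.1, 57.6 and 51.6 CPM (day 10). Ecm2 had a log2 fold change of -0.67 (standard error 0.21, edgeR adjusted p = 0.017). In the opposite direction, Acan (aggrecan) was at 3.46, 2.77, 4.003 and 1.95 CPM on day 7 and 11.04, 10.2, 10.1 and 11.99 CPM on day 10. Acan had a log2 fold change of 1.83 (standard error 0.31, edgeR adjusted p = 3.5e-05). Kera (keratocan) was at 4.34, 2.77, 4.31 and 4.73 CPM (day 7) and 13.4, 15.1, 13.04 and 13.9 CPM (day 10). Kera had a log2 fold change of 1.78 (standard error 0.20, edgeR adjusted p = 9.2e-08). Both were low, and neither overlapped between the days. Fmod (fibromodulin) was at 29.1, 32.7, 28.3 and 23.4 CPM on day 7 and 30.2, 28.9, 28.5 and 26.6 CPM on day 10. Fmod had a log2 fold change of 0.01 (standard error 0.11, edgeR adjusted p = 0.97). Vcan (versican), the large proteoglycan of granulation tissue, was at 250.2, 257, 244 and 191 CPM (day 7) and 281, 277, 302 and 265 CPM (day 10). Vcan had a log2 fold change of 0.26 (standard error 0.14, edgeR adjusted p = 0.17). Without both libraries that stood apart, the log2 fold change of Vcan was 0.13 (edgeR adjusted p = 0.60). Vcan was higher in the fit of the 8 libraries alone (edgeR adjusted p = 0.0046) and in that of 24 libraries (edgeR adjusted p = 0.034). The number that fell was 3 without day 7 replicate 3, without day 10 replicate 1 or without day 10 replicate 2.

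In the hyaluronan list 3 of 14 genes fell and 1 rose, beside 18.0% and 14.3% of all genes. Has2, the main hyaluronan synthase of fibroblasts, was at 17.3, 19.5, 16.4 and 15.9 CPM on day 7 and 8.37, 10.1, 8.05 and 8.12 CPM on day 10 and fell. Has2 had a log2 fold change of -0.996 (standard error 0.31, edgeR adjusted p = 0.015). Cemip, which starts hyaluronan breakdown, was at 11.4, 13.4, 12.1 and 9.91 CPM (day 7) and 8.29, 6.25, 7.13 and 7.47 CPM (day 10). Cemip had a log2 fold change of -0.68 (standard error 0.19, edgeR adjusted p = 0.0064). Lyve1, the hyaluronan receptor of lymphatic vessels and some macrophages, was at 22.7, 23.5, 24.8 and 20.1 CPM on day 7 and 10.9, 12.2, 12.8 and 12.4 CPM on day 10. Lyve1 had a log2 fold change of -0.92 (standard error 0.17, edgeR adjusted p = 0.00014). Hapln3, a link protein, was at 0.723, 0.461, 0.943 and 0.455 CPM (day 7) and 1.44, 1.76, 1.18 and 1.71 CPM (day 10) and rose. Hapln3 had a log2 fold change of 1.23 (standard error 0.31, edgeR adjusted p = 0.0031). Has1 was low at 1.42, 0.922, 1.02 and 1.49 CPM on day 7 and 1.26, 1.64, 1.82 and 0.943 CPM on day 10 and did not pass. Has1 had a log2 fold change of 0.22 (standard error 0.24, edgeR adjusted p = 0.53). Without day 10 replicate 2, 2 genes of the list rose, as they did with DESeq2's size factors, upper quartile normalization, no composition normalization, limma and edgeR on the 8 libraries alone. The last of these fits called 3541 of 16791 genes higher.

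Acta2, the actin gene that defines myofibroblasts, did not rise. Of 26 actin-myosin contraction genes tested 9 rose and 4 fell, with a median of 0.07, while 14.3% of all genes rose and 18.0% fell. The share that fell is near that of all genes. Acta2 (smooth muscle actin) was at 484, 501, 513 and 505 CPM (day 7) and 408, 395, 427 and 427 CPM (day 10), lower in every library of day 10 (exact two-sided permutation p = 0.0286, the smallest that 4 against 4 can give), and did not pass. Acta2 had a log2 fold change of -0.27 (standard error 0.12, edgeR adjusted p = 0.082). In the fit of the 8 libraries alone Acta2 fell (edgeR adjusted p = 9.3e-05). Its change differed from the step before, in which it rose by 0.73 on the log2 scale (difference -1.003, edgeR adjusted p = 0.0008). Tagln (transgelin), which binds actin fibres, was at 133, 143, 145 and 142 CPM on day 7 and 144, 140.4, 149 and 149 CPM on day 10. Tagln had a log2 fold change of 0.05 (standard error 0.13, edgeR adjusted p = 0.82). Myl9, the regulatory light chain of smooth muscle myosin, was at 149.9, 156, 175 and 142 CPM (day 7) and 184, 184.7, 201 and 203 CPM (day 10), without overlap. Myl9 had a log2 fold change of 0.31 (standard error 0.12, edgeR adjusted p = 0.058). It was higher in the fit of the 8 libraries alone (edgeR adjusted p = 0.00019), with upper quartile normalization (edgeR adjusted p = 0.022) and with DESeq2 on 28 libraries (adjusted p = 0.038).

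The largest rises of this list were those of Des, Myh11 and Tpm2. Des (desmin), the intermediate filament of muscle, was at 243, 245, 264 and 265 CPM on day 7 and 502, 507, 630.4 and 531 CPM on day 10. Des had a log2 fold change of 1.09 (standard error 0.18, edgeR adjusted p = 3.1e-05). Myh11, the heavy chain of smooth muscle myosin, was at 90.2, 81.2, 84.1 and 72.02 CPM (day 7) and 151, 151, 164 and 153 CPM (day 10). Myh11 had a log2 fold change of 0.92 (standard error 0.13, edgeR adjusted p = 5.4e-06). Tpm2 (tropomyosin) was at 416, 412, 440.1 and 498 CPM on day 7 and 717, 736, 879 and 767 CPM on day 10. Tpm2 had a log2 fold change of 0.81 (standard error 0.12, edgeR adjusted p = 8.2e-06). Cnn1 (calponin) was at 12.7, 11.8, 12.4 and 11.3 CPM (day 7) and 18.1, 16.3, 16.1 and 19.7 CPM (day 10). Cnn1 had a log2 fold change of 0.54 (standard error 0.16, edgeR adjusted p = 0.012). Beside these, all 18 skeletal muscle markers rose, with a median of 1.04, where 14.3% of all genes rose and 18.0% fell. Their summed level went from a range of 7166 to 7647 CPM to a range of 14106 to 17975 CPM. Of 10 pericyte and smooth muscle markers 6 rose and 0 fell, beside the same shares of all genes. Their summed CPM went from between 936 and 1041 to between 1183 and 1288. Myh11, Cnn1 and Lmod1 are in both this list and the contraction list. The part of either cell type in the contraction genes was not tested. Among the 4 genes that fell, Myh9 (non-muscle myosin) was at 544, 578, 569 and 484 CPM on day 7 and 410.3, 391, 464 and 409 CPM on day 10. Myh9 had a log2 fold change of -0.38 (standard error 0.08, edgeR adjusted p = 0.00077). Cald1 (caldesmon) was at 341, 349.8, 331 and 357 CPM (day 7) and 269, 276, 270.3 and 260.1 CPM (day 10). Cald1 had a log2 fold change of -0.36 (standard error 0.05, edgeR adjusted p = 9.2e-06). Cnn2 was at 174, 177, 179 and 168 CPM on day 7 and 133, 135, 143 and 132 CPM on day 10. Cnn2 had a log2 fold change of -0.36 (standard error 0.06, edgeR adjusted p = 1.7e-05). In the fit of the 8 libraries alone 11 genes of the list rose and 7 fell, beside 3541 and 3735 of 16791 genes tested.

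Many contraction genes are bound by serum response factor at CArG boxes, so the promoter windows of RefSeq (build GRCm38.p6, 250 bases before to 50 after the annotated start) were searched for CC, 6 bases of A or T, and GG, on both strands. A window was found for 23 of the 26 genes, and 4 of them (17.4%) held a CArG box, against 1.81% of all 27025 genes with a window. These were Myl9, Cnn2, Vcl and, named after its value was seen, Myl6, and Cnn2 alone passed the test, as a fall. None of the 8 fibrillar collagens with a window held a CArG box. The Myl9 box is printed with its surroundings because Myl9 was higher in every library of day 10 without passing the test (chr2:156775284-156775363, plus strand, 180 to 101 bases before the start), with the box in capitals.
Myl9: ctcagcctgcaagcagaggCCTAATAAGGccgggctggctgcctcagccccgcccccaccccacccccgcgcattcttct

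In adhesion and force sensing, 4 of 26 genes rose and 3 fell, which is no more than near the 14.3% and 18.0% of all genes. The integrin chains Itga8, Itgb8 and Itgb6, the latter 2 of which pair with the alpha v chain in receptors that activate TGF-beta, were higher in every library of day 10. Itga8 was at 11.7, 7.04, 10.8 and 7.84 CPM (day 7) and 18.2, 18.3, 18.6 and 15.9 CPM (day 10). Itga8 had a log2 fold change of 0.93 (standard error 0.17, edgeR adjusted p = 9.6e-05). Itgb8 was at 10.5, 10.04, 8.97 and 9.21 CPM on day 7 and 18.8, 16.9, 15.4 and 16.9 CPM on day 10. Itgb8 had a log2 fold change of 0.82 (standard error 0.12, edgeR adjusted p = 8.8e-06). Itgb6 was at 4.31, 2.92, 4.26 and 4.22 CPM (day 7) and 6.33, 7.76, 7.75 and 7.05 CPM (day 10). Itgb6 had a log2 fold change of 0.88 (standard error 0.20, edgeR adjusted p = 0.0013). The collagen receptor Itga11 was at 51.8, 49.7, 46.3 and 33.5 CPM on day 7 and 56.7, 54.1, 64.1 and 56.5 CPM on day 10, without overlap, and did not pass. Itga11 had a log2 fold change of 0.35 (standard error 0.14, edgeR adjusted p = 0.053). It was higher in the fit of the 8 libraries alone (edgeR adjusted p = 0.0037) and with upper quartile normalization (edgeR adjusted p = 0.027), DESeq2 on 28 libraries (adjusted p = 0.037) and limma (adjusted p = 0.016 with a pseudocount of 1). Ddr2, a receptor kinase for fibrillar collagen, was at 173, 171, 163 and 163 CPM (day 7) and 121, 114, 119.7 and 115 CPM (day 10) and fell. Ddr2 had a log2 fold change of -0.51 (standard error 0.14, edgeR adjusted p = 0.0064). Rhoa, the small GTPase that drives stress fibres, was at 518, 491, 503 and 555 CPM on day 7 and 436, 458, 451 and 441 CPM on day 10 and fell slightly. Rhoa had a log2 fold change of -0.21 (standard error 0.06, edgeR adjusted p = 0.0064). Cdh11 was at 219, 210.1, 209 and 184 CPM (day 7) and 196, 189, 201 and 183 CPM (day 10). Cdh11 had a log2 fold change of -0.09 (standard error 0.06, edgeR adjusted p = 0.28). Fap, an activated fibroblast protease, was at 28.2, 28.4, 26.3 and 31.3 CPM on day 7 and 26.7, 24.5, 25.9 and 24.9 CPM on day 10. Fap had a log2 fold change of -0.16 (standard error 0.12, edgeR adjusted p = 0.33).

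In the list of the TGF-beta pathway, which drives matrix genes in fibroblasts, 2 of 26 genes rose and 3 fell, beside 14.3% and 18.0% of all genes. Tgfb1 was at 96.7, 95.8, 106 and 84.6 CPM (day 7) and 87.4, 89.4, 103 and 91.5 CPM (day 10). Tgfb1 had a log2 fold change of -0.05 (standard error 0.09, edgeR adjusted p = 0.74). Tgfb3 was at 58.5, 53.7, 55.1 and 54.98 CPM on day 7 and 67.4, 65.3, 71.8 and 65.03 CPM on day 10 and rose. Tgfb3 had a log2 fold change of 0.28 (standard error 0.08, edgeR adjusted p = 0.0056). Fst (follistatin), which binds activins, was at 30.6, 29.7, 31.6 and 30.1 CPM (day 7) and 40.5, 40.1, 37.9 and 38.9 CPM (day 10) and rose. Fst had a log2 fold change of 0.37 (standard error 0.08, edgeR adjusted p = 0.00077). Inhba, the activin A chain, was at 27.4, 30.2, 24.04 and 32.2 CPM on day 7 and 25.6, 25.4, 22.9 and 21.8 CPM on day 10 with overlap. Inhba had a log2 fold change of -0.25 (standard error 0.09, edgeR adjusted p = 0.024). Tgfbr2, the type II receptor, was at 478, 471, 468 and 394 CPM (day 7) and 359, 347, 384 and 346 CPM (day 10). Tgfbr2 had a log2 fold change of -0.33 (standard error 0.12, edgeR adjusted p = 0.035). Tgfbr2 lost its call in 6 of the 8 fits without a library, all but those without day 7 replicate 4 or day 10 replicate 3 (edgeR adjusted p from 0.064 to 0.082). Inhba lost its call in 4 of them, those without day 7 replicate 2 or 4 or day 10 replicate 3 or 4 (edgeR adjusted p from 0.071 to 0.13). No falling call of the 3 was left without day 10 replicate 4 (count of 0). Without composition normalization 5 genes rose and 0 fell, and with upper quartile normalization 5 rose and 1 fell. Of all 18107 genes, 3404 rose and 2731 fell with the first, and 3348 and 2772 with the second. In the fit of the 8 libraries alone 5 rose and 5 fell, beside 3541 and 3735 of 16791 genes tested. Tgfbr2 and Inhba fell in that fit (edgeR adjusted p = 0.00013 and 0.025).

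Of 32 matrix proteases and inhibitors 8 rose and 8 fell, beside 14.3% and 18.0% of all genes. Mmp9, a gelatinase carried by neutrophils, macrophages and edge keratinocytes, was at 116, 123, 122 and 113 CPM on day 7 and 34.7, 34.6, 42.7 and 36.8 CPM on day 10 and had the largest fall. Mmp9 had a log2 fold change of -1.67 (standard error 0.25, edgeR adjusted p = 8.1e-06). Mmp3 (stromelysin) was at 201, 199.8, 212 and 222 CPM (day 7) and 114, 115, 120.1 and 112 CPM (day 10). Mmp3 had a log2 fold change of -0.86 (standard error 0.15, edgeR adjusted p = 4.5e-05). Mmp10 was at 4.39, 4.51, 3.65 and 5.26 CPM on day 7 and 1.94, 1.31, 2.35 and 1.07 CPM on day 10. Mmp10 had a log2 fold change of -1.42 (standard error 0.31, edgeR adjusted p = 0.00074). Mmp8, the neutrophil collagenase, was at 4.96, 5.68, 4.84 and 4.88 CPM (day 7) and 2.77, 2.11, 2.301 and 2.56 CPM (day 10). Mmp8 had a log2 fold change of -1.06 (standard error 0.19, edgeR adjusted p = 8.6e-05). No library of day 10 reached the lowest of day 7 for any of these 4 genes. Mmp12, the macrophage elastase, was at 144, 172, 105 and 132 CPM on day 7 and 345, 344, 407 and 338 CPM on day 10 and rose. Mmp12 had a log2 fold change of 1.38 (standard error 0.33, edgeR adjusted p = 0.0017). Mmp11, a stromal protease, was at 82.3, 76.6, 84.2 and 71.1 CPM (day 7) and 137, 142, 142 and 133 CPM (day 10). Mmp11 had a log2 fold change of 0.82 (standard error 0.10, edgeR adjusted p = 3.7e-07). Prss35, a secreted serine protease-like protein, was at 179, 163, 162 and 176 CPM on day 7 and 334, 354, 369.9 and 323 CPM on day 10. Prss35 had a log2 fold change of 1.02 (standard error 0.12, edgeR adjusted p = 1.2e-07). Both Mmp11 and Prss35 had their highest mean of the course on day 10 and fell by 1.32 and 2.30 on the log2 scale to day 12. The collagenase Mmp13 was at 46.4, 51.2, 42.99 and 51.5 CPM (day 7) and 29.8, 30.6, 33.7 and 25.2 CPM (day 10). Mmp13 had a log2 fold change of -0.69 (standard error 0.28, edgeR adjusted p = 0.057). The gelatinase Mmp2 was at 1100, 1099, 1123 and 1100 CPM on day 7 and 871, 883, 975 and 859.9 CPM on day 10. Mmp2 had a log2 fold change of -0.30 (standard error 0.16, edgeR adjusted p = 0.16). Timp1, an inhibitor of these proteases, was at 65.7, 71.1, 64.4 and 74.1 CPM (day 7) and 51.3, 49.2, 52.5 and 48.01 CPM (day 10). Timp1 had a log2 fold change of -0.45 (standard error 0.23, edgeR adjusted p = 0.13). None of these passed. All 3 were lower in every library of day 10, and in the fit of the 8 libraries alone they fell (edgeR adjusted p = 6.6e-07, 4.2e-05 and 2.5e-06). In that fit 10 genes of the list rose and 13 fell, beside 3541 and 3735 of 16791 genes tested.

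Mmp3, Mmp10, Mmp12 and Mmp13 stand in 1 cluster on chromosome 9, and not all of them moved in the same direction. Each held an AP-1 site (TGAGTCA on either strand) ahead of a TATA box (TATAAA on either strand) in the RefSeq window, a search of the protease promoters that was added after values were seen. Among the 24 protease list genes with a window 6 (25%) held an AP-1 site, against 5.95% of all genes with a window. The lines give 100 bases of each on the plus strand, with the AP-1 site and the TATA box in capitals, at chr9:7445742-7445841 for Mmp3, chr9:7502262-7502361 for Mmp10, chr9:7272434-7272533 for Mmp13 and chr9:7347309-7347408 for Mmp12. The AP-1 site began 46, 63, 35 and 44 bases before the annotated start of these 4 genes, in the same order. The TATA box began 7, 29 and 16 bases before the start of Mmp3, Mmp10 and Mmp13 and 4 bases after that of Mmp12, so its position differed between them. Another annotated start of Mmp12 held neither motif.
Mmp3: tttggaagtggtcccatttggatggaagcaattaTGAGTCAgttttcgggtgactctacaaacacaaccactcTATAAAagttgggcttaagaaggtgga
Mmp10: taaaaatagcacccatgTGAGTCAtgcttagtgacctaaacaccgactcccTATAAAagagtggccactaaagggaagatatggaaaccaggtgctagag
Mmp13: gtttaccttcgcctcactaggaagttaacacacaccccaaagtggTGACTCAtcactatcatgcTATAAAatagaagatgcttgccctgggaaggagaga
Mmp12: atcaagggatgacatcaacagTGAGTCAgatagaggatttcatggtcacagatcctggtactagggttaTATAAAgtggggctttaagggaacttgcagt

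Inflammatory mediators went down. Of 23 tested 14 fell and 2 rose, beside 18.0% and 14.3% of all genes, and the median was -0.64. Il1b (interleukin 1 beta) was at 164, 204, 167 and 206 CPM on day 7 and 55.4, 56.3, 70.5 and 51.98 CPM on day 10. Il1b had a log2 fold change of -1.66 (standard error 0.17, edgeR adjusted p = 2.4e-08). Osm (oncostatin M) was at 7.02, 9.65, 7.78 and 10.6 CPM (day 7) and 3.05, 3.45, 4.19 and 3.18 CPM (day 10). Osm had a log2 fold change of -1.34 (standard error 0.19, edgeR adjusted p = 2.5e-06). Il10, an anti-inflammatory cytokine, was at 1.52, 0.973, 1.25 and 1.795 CPM on day 7 and 0.4032, 0.57, 0.281 and 0.67 CPM on day 10. Il10 had a log2 fold change of -1.52 (standard error 0.34, edgeR adjusted p = 0.00086). Il1b and Osm had also fallen in the step before, and the steps differed by -0.05 and 0.06 (not passed, edgeR adjusted p = 0.93 and 0.93). Nos2, the inducible nitric oxide synthase, was at 8.86, 7.298, 8.29 and 6.98 CPM (day 7) and 11.1, 10.1, 12.3 and 9.68 CPM (day 10) and rose (log2 fold change 0.46, standard error 0.11, edgeR adjusted p = 0.003), after a fall by 3.32 on the log2 scale from day 5 to day 7. The call of Nos2 was lost without both libraries that stood apart (edgeR adjusted p = 0.057). Nos2 rose in the fit of the 8 libraries alone (edgeR adjusted p = 0.0010). Il17a had 0 counts in all libraries of day 7 and 6, 7, 6 and 5 counts in those of day 10, too few for a fold change. Il6 was at 1.55, 1.02, 1.56 and 1.67 CPM on day 7 and 1.36, 1.07, 0.741 and 0.745 CPM on day 10. Il6 had a log2 fold change of -0.57 (standard error 0.35, edgeR adjusted p = 0.23). Cxcl2, a neutrophil chemokine, was at 115, 151, 101 and 141 CPM (day 7) and 60.7, 68.7, 82.01 and 52.1 CPM (day 10). Cxcl2 had a log2 fold change of -0.95 (standard error 0.36, edgeR adjusted p = 0.044). The call of Cxcl2 was lost in 6 of the 8 fits without a library (edgeR adjusted p from 0.060 to 0.12), which were those without day 7 replicates 1, 2 or 4 or day 10 replicates 1, 2 or 4. It was also lost without composition normalization (edgeR adjusted p = 0.053), with Xist as a covariate (edgeR adjusted p = 0.069), with DESeq2 on 28 libraries (adjusted p = 0.22), with limma (adjusted p = 0.066 with a pseudocount of 1 and 0.25 with 0.1) and without both libraries that stood apart (edgeR adjusted p = 0.085). Cxcl2 fell in the fit of the 8 libraries alone (edgeR adjusted p = 2.1e-06). It also fell in the fit of the 24 libraries of days 3 to 14 (edgeR adjusted p = 2.5e-07).

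Most leukocyte markers also fell from day 7 to day 10, beside 18.0% of all genes falling and 14.3% rising. Of 13 neutrophil markers 9 fell, and their summed CPM went from between 707 and 1160 to between 298 and 341. Cxcr2, the neutrophil chemokine receptor, was at 21.9, 27.04, 23.8 and 24.6 CPM on day 7 and 5.39, 5.08, 7.08 and 5.11 CPM on day 10. Cxcr2 had a log2 fold change of -2.10 (standard error 0.13, edgeR adjusted p = 1.7e-12). Of 16 macrophage markers 12 fell and 2 rose, and their summed CPM went from between 5004 and 5357 to between 3412 and 3788. Cd163, a receptor of resident macrophages, was at 102, 95.99, 100.2 and 92.7 CPM (day 7) and 16.3, 17, 15.9 and 16.4 CPM (day 10). Cd163 had a log2 fold change of -2.58 (standard error 0.18, edgeR adjusted p = 3.4e-11). It was back at a mean of 65.1 CPM on day 12. Gpnmb, a marker of lipid-laden macrophages that melanocytes also express, was at 314, 345, 299 and 292 CPM on day 7 and 603, 610.3, 717 and 633 CPM on day 10 and rose. Gpnmb had a log2 fold change of 1.04 (standard error 0.11, edgeR adjusted p = 1.5e-08). All 8 T cell markers and all 7 mast cell markers tested fell, with medians of -0.95 and -0.79. Their medians were 0.23 and 0.01 in the step before, and 0.46 and 0.80 in the step after. Day 10 was thus low between days 7 and 12 for both lists. The mediators had medians of -1.56 in the step before and -2.26 in the step after. Gpnmb was joined by Mertk, and a single marker rose without day 7 replicate 3 or 4 or without day 10 replicate 2 or 3, while 1 neutrophil marker rose without day 7 replicate 1. The part of these cells in the fall of the proteases and mediators was not tested.

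All 26 cell cycle genes tested had a fold change above 0, with a median of 0.24, and 7 rose and 0 fell, beside 14.3% and 18.0% of all genes. For 22 of the 26 all libraries of day 10 lay above those of day 7, as for 17.3% of all genes. Mki67, a marker of dividing cells, was at 139, 145, 126 and 111 CPM (day 7) and 183, 178, 182 and 180.0 CPM (day 10). Mki67 had a log2 fold change of 0.47 (standard error 0.18, edgeR adjusted p = 0.045). Aurkb, a kinase of the mitotic spindle, was at 12.3, 12.3, 12.8 and 11.4 CPM on day 7 and 17.97, 21.1, 16.4 and 20.1 CPM on day 10. Aurkb had a log2 fold change of 0.63 (standard error 0.14, edgeR adjusted p = 0.00065). Mcm2, a part of the replication helicase, was at 31.4, 32.6, 34.6 and 23.8 CPM (day 7) and 41.9, 43.5, 40.2 and 47.1 CPM (day 10). Mcm2 had a log2 fold change of 0.50 (standard error 0.15, edgeR adjusted p = 0.012). Top2a was at 84.9, 88.9, 82.6 and 85.1 CPM on day 7 and 103, 100, 97.3 and 103 CPM on day 10. Top2a had a log2 fold change of 0.24 (standard error 0.15, edgeR adjusted p = 0.25). Mcm2 lost its call without day 7 replicate 4 (log2 fold change 0.40, edgeR adjusted p = 0.055) and without both libraries that stood apart (edgeR adjusted p = 0.065). Mki67 lost its call in 7 of the 8 fits without a library, all but that without day 7 replicate 2. Mki67 and Mcm2 rose in the fit of the 8 libraries alone (edgeR adjusted p = 3.4e-06 and 8.0e-05). In that fit 22 genes of the list rose, beside 3541 of 16791 genes tested. In the fit of the 24 libraries of days 3 to 14, 21 rose, beside 3236 of 17912 genes tested. Mki67 and Mcm2 were among them (edgeR adjusted p = 0.0025 and 1.9e-05).

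In the epidermis, basal and suprabasal markers went opposite ways. Of 9 basal keratinocyte markers 6 rose and 1 fell (14.3% and 18.0% of all genes). Krt5 was at 1039, 1118, 1125 and 1155 CPM (day 7) and 1709, 1723, 1697 and 1919 CPM (day 10). Krt5 had a log2 fold change of 0.67 (standard error 0.16, edgeR adjusted p = 0.0023). Krt15, a keratin of basal and follicle bulge cells, was at 257, 267, 273 and 272 CPM on day 7 and 532, 553, 506 and 623 CPM on day 10. Krt15 had a log2 fold change of 1.05 (standard error 0.10, edgeR adjusted p = 8.3e-09). Of 12 differentiated epidermis markers 8 fell and 1 rose, with Krt10, the keratin of suprabasal layers, at 1438, 1585, 1529 and 1653 CPM (day 7) and 715, 712, 647 and 768 CPM (day 10). Krt10 had a log2 fold change of -1.13 (standard error 0.10, edgeR adjusted p = 1.2e-09). Flg (filaggrin) was the exception at 136, 163, 141 and 90.2 CPM on day 7 and 236, 234, 188 and 237 CPM on day 10. Flg had a log2 fold change of 0.75 (standard error 0.21, edgeR adjusted p = 0.0078). Krt10 was high again on day 12, with a mean of 1642 CPM. Of 11 wound edge keratinocyte markers 5 fell and 0 rose, among which Krt6a was at 405, 489.5, 442 and 535 CPM (day 7) and 316, 301, 291 and 323 CPM (day 10) and did not pass. Krt6a had a log2 fold change of -0.61 (standard error 0.31, edgeR adjusted p = 0.14).

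Genes of the hair shaft had the largest falls. The keratin-associated proteins, cysteine-rich proteins that crosslink keratin in the hair shaft, were measured by 54 tested Krtap symbols, of which 52 fell and 0 rose, where 18.0% of all genes fell. Their summed CPM was 1022, 1311, 938 and 1190 in the day 7 libraries and 4.33, 4.66, 3.605 and 4.47 in the day 10 libraries. It was 4.19 to 8.24 CPM at day 5 and 2763 to 4028 CPM at day 12, so that day 7 was high between 2 low days. In the 4 libraries of day 0, between 78.7 and 1777 CPM were counted. By fitted fold change, among genes that fell without overlap and had a mean of at least 10 CPM on day 7, the 10 largest falls were those of 6 Krtap symbols and 4 symbols that start with Gm. The summed counts of the 4 libraries went from 3314 on day 7 to 1 on day 10 for Gm11595 and from 15493 to 16 for Krtap15. The Krtap genes form families of near-identical members, and counting may have divided their reads, which makes values of single members uncertain. The fold for Gm11595 was 3375, with a counting interval from 605 to 133339.

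Hair keratins and regulators did not move as 1 block. Of 21 hair follicle markers 13 fell and 5 rose (18.0% and 14.3% of all genes). Krt86, a keratin of the hair cortex, was at 51.6, 68.5, 55.9 and 66.7 CPM on day 7 and 0.1008, 0.124, 0.153 and 0.124 CPM on day 10. Krt86 had a log2 fold change of -8.88 (standard error 0.76, edgeR adjusted p = 7.9e-10). Krt34 was at 43.9, 58.8, 49.4 and 53.2 CPM (day 7) and 0.126, 0.273, 0.153 and 0.174 CPM (day 10). Krt34 had a log2 fold change of -8.12 (standard error 0.70, edgeR adjusted p = 8e-10). Krt27, of the inner root sheath, was at 168, 220.4, 188 and 230.2 CPM on day 7 and 20.2, 19.4, 18.5 and 19.96 CPM on day 10. Krt27 had a log2 fold change of -3.37 (standard error 0.35, edgeR adjusted p = 2.6e-08). Against these, Shh, the growth signal of the hair matrix, was at 1.81, 2.05, 1.61 and 2.05 CPM (day 7) and 7.06, 8.85, 6.85 and 8.44 CPM (day 10). Shh had a log2 fold change of 2.05 (standard error 0.24, edgeR adjusted p = 2.1e-07). Lef1, a Wnt effector of the hair matrix, was at 5.34, 5.17, 4.44 and 4.68 CPM on day 7 and 13.1, 11.5, 11.4 and 12.01 CPM on day 10. Lef1 had a log2 fold change of 1.29 (standard error 0.20, edgeR adjusted p = 1.4e-05). The number that rose was 3 when any of day 7 replicates 1, 2 and 3 or day 10 replicates 1, 2 and 4 was left out. Pigment cell markers rose, with 5 of 7 called and a median of 2.14. Pmel, a scaffold of melanosomes, was at 7.25, 6.32, 7.19 and 6.904 CPM (day 7) and 33.6, 34.3, 31.7 and 35.1 CPM (day 10). Pmel had a log2 fold change of 2.28 (standard error 0.29, edgeR adjusted p = 4.7e-07). Tyr (tyrosinase) was at 2.12, 2.48, 2.01 and 2.45 CPM on day 7 and 11.8, 9.87, 10.6 and 10.6 CPM on day 10. Tyr had a log2 fold change of 2.24 (standard error 0.32, edgeR adjusted p = 4.2e-06). Dct, a melanin enzyme, was at 18.5, 19.4, 17.9 and 19.5 CPM (day 7) and 73.1, 73.2, 65.1 and 71.1 CPM (day 10). Dct had a log2 fold change of 1.91 (standard error 0.15, edgeR adjusted p = 2.7e-10). Mitf and Mlana did not pass, at log2 fold changes of -0.13 and -0.02. Pmel, Tyr and Dct also rose in the steps before and after, by 1.24, 1.97 and 1.14 and by 1.28, 1.56 and 0.86 on the log2 scale. The plot of summed marker levels over the days shows the hair shaft and pigment patterns.

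**Figure D3:**
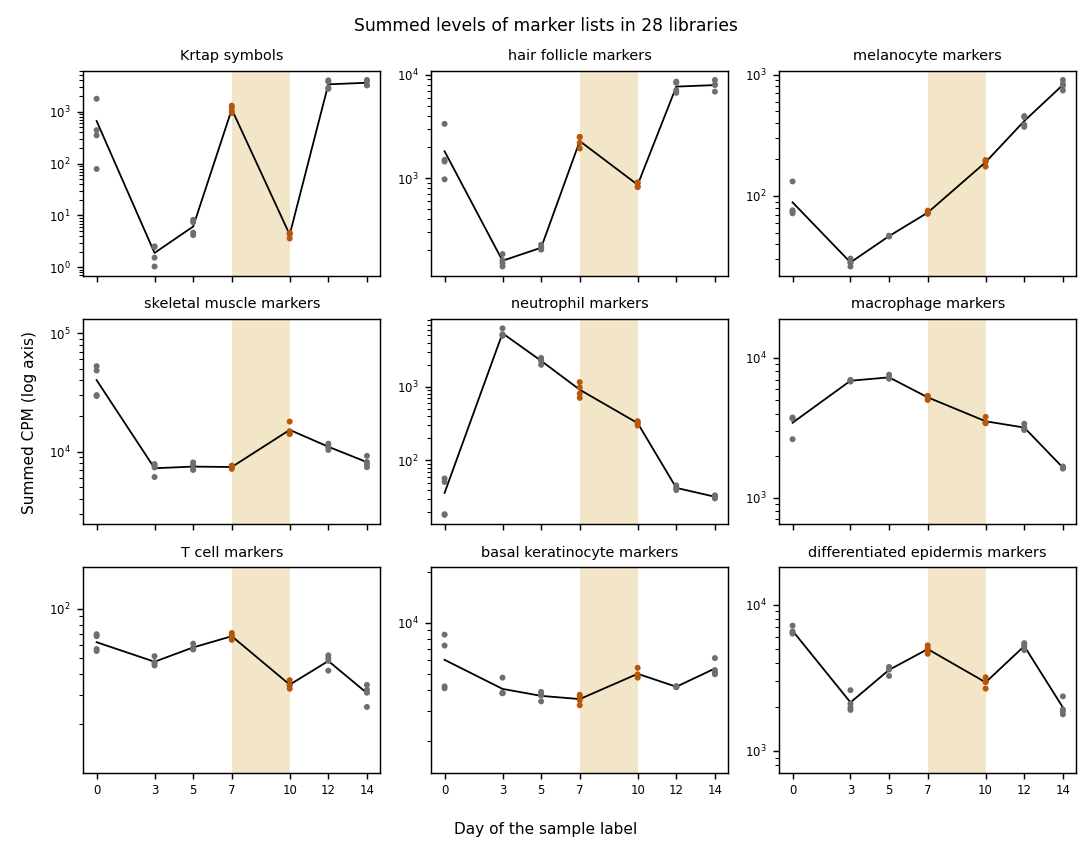
Summed CPM on a log axis against the day of the label for the Krtap symbols and 8 marker lists in 28 libraries. Points are libraries (4 per day, orange on days 7 and 10), the line joins the means, and the shaded band is the interval from day 7 to day 10. The Krtap sum drops from 938 or more to 4.66 or less within the band and is above 2700 on day 12, the melanocyte sum goes up on each day after day 3, and the neutrophil sum goes down.

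Most Krtap promoters hold a TATA box. In the RefSeq windows TATAAA was found on either strand for 40 of 49 Krtap genes with a window (81.6%) and for 9 of 15 hair follicle markers (60%), against 15.7% of all genes with a window. The search of the hair promoters was added after values were seen. Part of the Krt34 window is printed as an example of a hair keratin that fell. It lies on the minus strand at chr11:100041535-100041614 of GRCm38.p6, with the TATA box in capitals, 31 to 26 bases before the annotated start.
Krt34: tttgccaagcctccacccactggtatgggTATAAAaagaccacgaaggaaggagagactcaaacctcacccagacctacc

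The other marker lists are given by their counts, beside 14.3% rising and 18.0% falling among all genes. Of 12 dermal fibroblast markers 5 fell and 0 rose, with Pi16, a marker of adventitial fibroblasts, at 207, 222, 225 and 227 CPM on day 7 and 96.04, 104, 111 and 100.1 CPM on day 10. Pi16 had a log2 fold change of -1.10 (standard error 0.21, edgeR adjusted p = 0.0002). Of 12 endothelial markers 2 rose and 0 fell, and Pecam1 was at 242, 249, 236 and 238 CPM (day 7) and 247, 238, 270.1 and 239 CPM (day 10). Pecam1 had a log2 fold change of 0.04 (standard error 0.06, edgeR adjusted p = 0.65). Of 9 Schwann cell markers 5 rose and 1 fell. Of 10 sebaceous markers 4 rose and 4 fell. Of 8 brown fat markers 4 fell and 1 rose, with Ucp1, the uncoupling protein of brown fat, at 512, 589.7, 556 and 580.3 CPM on day 7 and 296, 298, 327 and 291 CPM on day 10. Ucp1 had a log2 fold change of -0.88 (standard error 0.18, edgeR adjusted p = 0.0003). Of 12 white adipocyte markers 1 rose and 3 fell, and 7 fell in the fit of the 8 libraries alone and 5 with at least 10 counts in every library. In these fits 3735 of 16791 and 2882 of 14411 genes tested fell. Of 5 hemoglobin genes 4 fell. The plot of marker genes gives each gene.

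**Figure D4:**
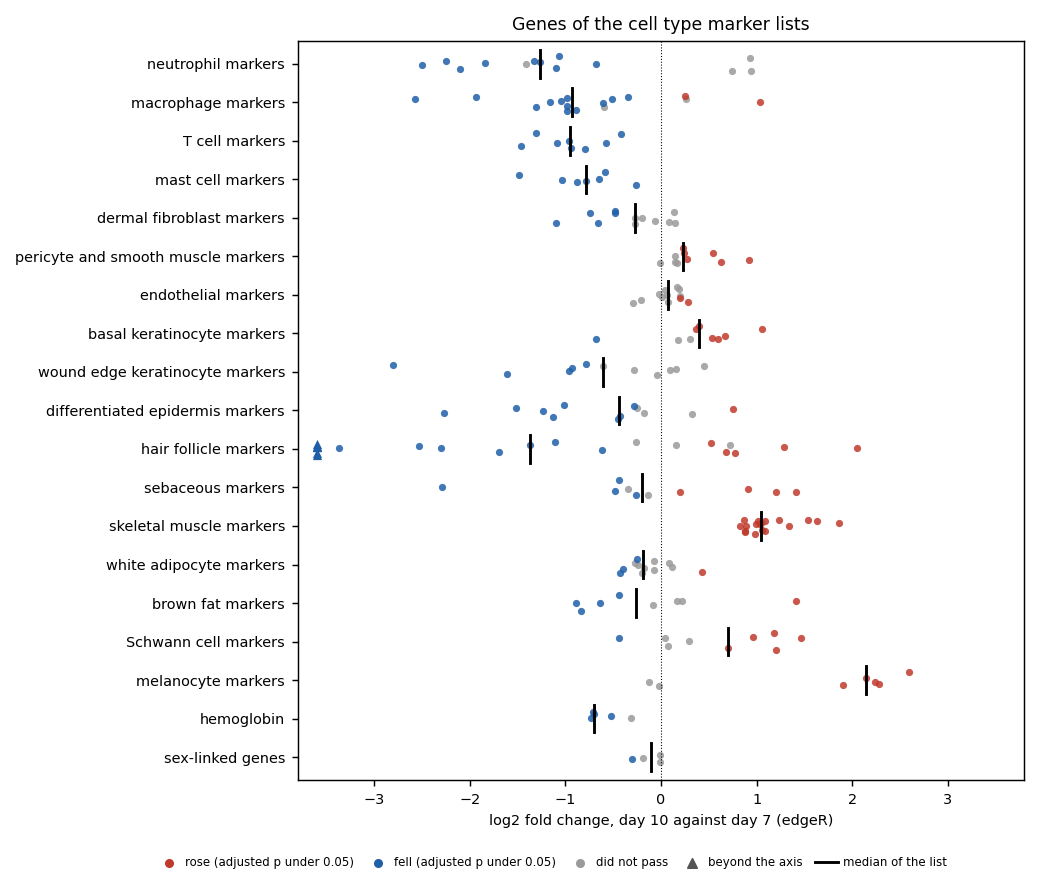
Log2 fold change from day 7 to day 10 (horizontal axis, edgeR) of each tested gene in the marker lists (rows). Red points rose and blue points fell at an adjusted p under 0.05, grey points did not pass, black bars are list medians and triangles are genes beyond the axis. All 18 skeletal muscle markers are red around a median of 1.04, and all 8 T cell markers are blue around -0.95.

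The 10 largest increases follow, and which cells expressed these genes was not tested. Cyp2g1, a cytochrome P450 and the first of them, was at 3.82, 2.15, 2.91 and 2.91 CPM (day 7) and 30.9, 27.3, 26.5 and 31.4 CPM (day 10). Cyp2g1 had a log2 fold change of 3.30 (standard error 0.34, edgeR adjusted p = 1.9e-08). It stayed at a mean of 26.9 CPM on day 12. Fa2h, which hydroxylates fatty acids of skin lipids and myelin, was at 109.8, 98.4, 101 and 84.8 CPM on day 7 and 426, 425, 388 and 443 CPM on day 10. Fa2h had a log2 fold change of 2.10 (standard error 0.15, edgeR adjusted p = 4.9e-11). Panx3, a channel protein, was at 5.96, 4.69, 4.49 and 5.01 CPM (day 7) and 24.9, 22.8, 22.7 and 24.7 CPM (day 10). Panx3 had a log2 fold change of 2.24 (standard error 0.18, edgeR adjusted p = 2.8e-10). Corin, a serine protease of the dermal papilla, was at 2.22, 3.71, 2.75 and 1.85 CPM on day 7 and 13.6, 12.2, 12.9 and 12.4 CPM on day 10. Corin had a log2 fold change of 2.28 (standard error 0.29, edgeR adjusted p = 6e-07). Xirp1, an actin-binding protein of injured striated muscle, was at 9.27, 11.8, 9.25 and 8.902 CPM (day 7) and 35.1, 38.3, 49.01 and 38.4 CPM (day 10). Xirp1 had a log2 fold change of 2.04 (standard error 0.16, edgeR adjusted p = 1.9e-10). The steroid enzyme Hsd3b6, the unnamed Gm16527 and the pigment genes Pmel, Tyr and Tyrp1 made up the rest. The days of all 10 genes were without overlap, which was part of the rule that chose them.

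The step from day 7 to day 10 lasted 3 days and its neighbours 2 days each, and each neighbour shares the libraries of 1 day with it. From day 5 to day 7, 2519 genes rose and 2642 fell, and from day 10 to day 12, 3383 rose and 3744 fell. The change from day 7 to day 10 was higher than that of the step before for 1236 genes (6.83%) and lower for 1729 (9.55%), and relative to the step after it was higher for 2878 (15.9%) and lower for 2916 (16.1%). Over all genes these are 13.9% and 14.6% in the step before and 18.7% and 20.7% in the step after, against 14.3% and 18.0% from day 7 to day 10. Read beside these shares, in the actin-myosin list 14 of 26 genes rose and 1 fell in the step before, 9 and 4 from day 7 to day 10, and 1 and 14 in the step after. Of the 33 genes of collagen processing, 22 fell in the step after and 7 from day 7 to day 10. Nos2 and Des turned relative to the step before, with differences of 3.78 and 1.77 on the log2 scale (edgeR adjusted p = 4.8e-13 and 0.00027). Tnn and Prss35, which are in the plot of 3 steps, were higher than in the step after by 4.20 and 3.32 (edgeR adjusted p = 3.6e-11 and 9.5e-13).

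**Figure D5:**
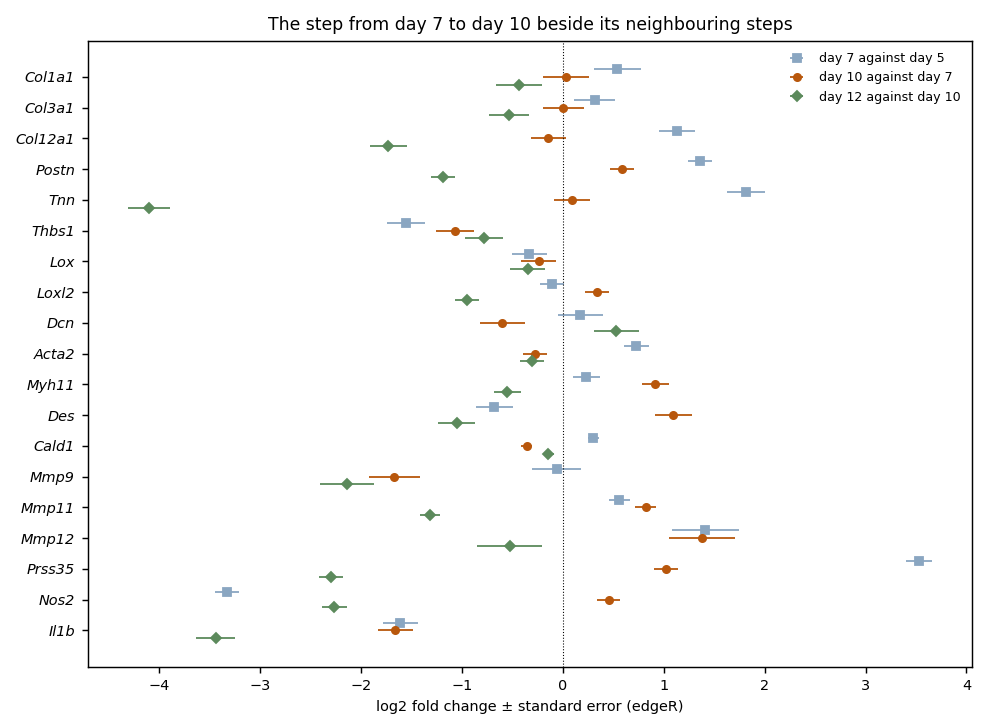
Log2 fold changes with standard errors (horizontal axis, edgeR fit of 28 libraries) of 19 genes (rows) for the steps from day 5 to day 7 (blue squares), day 7 to day 10 (orange circles) and day 10 to day 12 (green diamonds). Col1a1, Col3a1 and Tnn lie at 0.03, 0.01 and 0.09 in the middle step, between a rise and a fall, while Thbs1 and Il1b lie below 0 in all 3.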

How the data were processed

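RNA of skin at the wound was sequenced in 28 libraries of 7 days, and the 8 libraries of days 7 and 10 are compared here. The authors deposited a table of raw read counts per gene and a table of FPKM values computed by the authors from these counts. The labels' processing notes name fastp, R 3.2.0 and the build mm10, and the aligner and counter are not given in the sources used here. Whether the counting used strand is likewise not given.

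The counts were tested with edgeR 4.0.16 in R 4.3.3 (quasi-likelihood test, TMM, filterByExpr) in 1 fit of all 28 libraries with 21 residual degrees of freedom. P-values were two-sided and adjusted by Benjamini-Hochberg over 18107 genes. CPM were scaled by TMM. The deposited FPKM were used for levels between genes and in limma 3.58.1. DESeq2 1.42.0, the tool of the study, was an alternative, as were other normalizations, filters, subsets of libraries and a replicate block. The procedure was tested on simulated data with few changed genes and the same spread per gene on every day. That test does not cover the wider spread of day 0. Total counts of all 28 libraries ranged from 36706513 to 40655764, which limits the precision of low genes most. Any 2 libraries of a day differed by more than counting noise, with a median chi-square per gene from 1.55 to 3.82 against 0.455.

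Members and lists were chosen with earlier results of these data known. The text names preset genes of each list, the 3 most raised and 3 most lowered members of each pathway list, marker genes, and the 10 largest increases and decreases with a mean of at least 10 CPM in the higher day and no overlap. Promoters came from RefSeq windows (GRCm38.p6). Some genes of the lists are counted but not reported here by name.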

Additional observations from a re-analysis of the deposited data

Results flagged for a closer look

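For 48 genes, the highest or lowest library of each day was compared with the other 3 by Dixon's criterion. It lay far from them in 10 of 96 groups, where chance gives about 4.8. Day 7 replicate 4 was low in log2 CPM for Fn1 (10.45, others 10.94 to 11.04), Vcan (7.58, others 7.93 to 8.01), Col6a3 (10.31, others 10.64 to 10.70) and Loxl2 (8.10, others 8.20 to 8.21). Day 10 replicate 3 was high for Col1a1 (14.19, others 13.91 to 13.95), Col1a2 (13.86, others 13.67 to 13.68) and Fn1 (10.97, others 10.66 to 10.69). The remaining values were Has2 in day 10 replicate 2 (3.35, others 3.02 to 3.07), Mmp2 in day 7 replicate 3 (10.13, others 10.10) and Il6 in day 7 replicate 2 (0.10, others 0.68 to 0.78).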

How the results depend on the processing

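Over 131 named genes, 2719 of 2975 values under alternatives kept their direction and side of the threshold, 139 came to pass it, 87 no longer passed it and 30 changed sign. Of 81 genes called, 12 lost the call under some alternative, and 26 others gained one. Calls over all genes numbered 7276 with the 8 libraries alone (5591 of them shared with the 5846 of the fit used), 7066 with 24 libraries and 5176 with at least 10 counts in every library. The cause of these moves was not tested.

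By the study's criteria 605 genes were higher with no filter on low counts, 54 with at least 10 counts, 21 with limma on log2(FPKM + 1) and 80 on log2(FPKM + 0.1), against 251. Lower were 158, 169 and 342 with the last 3 of these, against 583. Limma called 3538 genes higher and 2699 lower with a pseudocount of 1, and 3436 and 2719 with 0.1. Falling contraction genes numbered 8 with DESeq2 on 8 libraries, 7 with edgeR on them and 7 with the replicate block on them. Of all 16791 genes tested, 3841, 3735 and 3696 fell in these 3 fits. In the 8 libraries alone, edgeR called 3541 of 16791 genes higher and 3735 lower. Of the lists it called 4 rising and 11 falling genes of collagen processing, 7 and 7 matricellular genes and 9 and 4 adhesion genes. It called 2 rising and 8 falling dermal fibroblast markers, and 5 and 2 endothelial markers. Falling matrix proteases numbered 13 in the same 3 fits and in the fit of 24 libraries, which called 3830 of 17912 genes lower. The rising inflammatory mediators numbered 1 with at least 10 counts, in all 3 fits of the 8 libraries and with limma and a pseudocount of 1, and 8 fell with at least 10 counts. Rising hair follicle markers numbered 2 with at least 10 counts, where 8 fell, and 3 with DESeq2 on 28 libraries. With at least 10 counts 4 neutrophil markers fell and 3 melanocyte markers rose, against 9 and 5. That filter left 14411 genes, of which 2294 rose and 2882 fell, and members below it were not tested. Leaving out 1 library gave 263 to 314 genes higher and 572 to 615 lower by the study's criteria, 2200 to 2412 and 2850 to 3109 by adjusted p, 3 to 4 rising hair follicle markers, 1 to 2 rising macrophage markers and 10 to 13 falling inflammatory mediators.

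Genes that changed sign were all uncalled. Without composition normalization the log2 fold changes of Col1a2 and Tgfb1 were 0.0033 and 0.0055, with limma 0.0023 and 0.0072 (pseudocount 1) and 0.0023 and 0.0074 (pseudocount 0.1). Col5a3 was at -0.0014 with at least 10 counts. With Xist as a covariate Col1a1 was at -0.0065, Col3a1 at -0.033, Col5a1 at -0.020, Col5a3 at -0.014 and Serpinh1 at -0.0010. Leaving out 1 library gave ranges of -0.034 to 0.064 for Col1a1, -0.029 to 0.027 for Col3a1, -0.054 to 0.041 for Col5a1, -0.054 to 0.032 for Col5a3, -0.0071 to 0.052 for Serpinh1, -0.067 to 0.084 for Fmod, -0.013 to 0.11 for Bub1 and -0.098 to 0.0061 for Tgfb1. Without day 7 replicate 4 and day 10 replicate 3 together, an alternative chosen after seeing the data, Col1a1 was at -0.033, Col3a1 at -0.043, Col5a1 at -0.052, Col5a3 at -0.036, Serpinh1 at -0.016, Fmod at -0.073, Tgfb1 at -0.153 and Bub1 at 0.127, with 1 rising inflammatory mediator and 1 rising macrophage marker.

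Libraries with the same replicate number did not deviate together (correlations from -0.0086 to 0.0078, and 0 libraries correlated best with their own number). The labels do not say what the number stands for, and so few libraries cannot tell whether it marks a shared batch. With the replicate block 5846 genes were called in 28 libraries and 7190 in 8. Falling white adipocyte markers numbered 6 with the block in 28 libraries, against 3. With that block Cxcl2 lost its call (edgeR adjusted p = 0.051) and Itga11 passed (edgeR adjusted p = 0.022).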
